A study of Mus musculus with 16 samples.

Results

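The transcripts of 7 G protein coupled receptors of the striatum were followed through long-read RNA sequencing of the cortex and striatum of R6/2 and non-transgenic (NT) mice: the dopamine receptors Drd1 and Drd2, the adenosine receptor Adora2a, the orphan receptor Gpr6, the histamine receptor Hrh3, the muscarinic receptor Chrm4 and the cannabinoid receptor Cnr1. They were chosen by gene symbol with earlier results of these data known, as were the gene lists set beside them. They are 7 of the 24035 annotated genes with at least 1 read, with 116 of the 815498 isoforms listed. PacBio Iso-seq, which reads whole cDNA molecules from poly(A) RNA, was done on 16 samples from male mice 3 months old, with 4 samples in each of the groups striatum NT, striatum R6/2, cortex NT and cortex R6/2. R6/2 mice carry a transgene of exon 1 of human HTT with an expanded CAG repeat, a model of Huntington's disease that expresses only this fragment, and NT mice lack it. No other allele or treatment was given for either genotype. Striatum NT 1, striatum NT 2, striatum R6/2 2 and striatum R6/2 3 have 2 sets of counts each, which were summed, and the other 12 samples have 1. The labels call the 2 sets replicates and do not say whether they are sequencing runs or separate libraries.

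Projection neurons of the striatum fall into a direct and an indirect pathway. Direct pathway neurons carry the dopamine D1 receptor and the muscarinic M4 receptor, and their D1 receptors raise cyclic AMP through the G protein Golf. Indirect pathway neurons carry the dopamine D2 receptor, the adenosine receptor encoded by Adora2a and GPR6, and express Penk, the precursor of enkephalin. The histamine H3 receptor and the cannabinoid CB1 receptor are found on both kinds of neuron and also on incoming axons, where they restrain transmitter release, although a transcript is read only in the cell that makes it. Loss of several of these receptors from striatal neurons is a known trait of Huntington's disease and its models.

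Between 251336 and 1349108 reads per striatal sample and between 202664 and 699709 per cortical sample were assigned to annotated genes. A single read was therefore worth between 0.811 and 5.08 CPM (counts relative to the reads of the genes that passed the filter, scaled by TMM), and each receptor rests on few reads. The striatal samples with 2 count sets were deeper and had longer isoforms on average (2125 to 2197 nt) than those with 1 (1589 to 1840 nt), in both genotypes. The region labels fitted the markers: projection neuron markers summed to 6532 to 10332 CPM in striatum NT and to 752 to 965 CPM in cortex NT, with all 9 detected in each. Striatum NT 3 carried 9572 CPM of choroid plexus markers against 36.8 to 330 CPM in the other striatal samples. With it left out, Hrh3 alone of the receptors was called in the striatum, and its part in the results was not tested further. Nothing in the labels says how the 4 samples of a group were derived beyond their numbers, so p-values measure the spread between these samples.

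In the striatum, Hrh3 was lower in R6/2 mice than in NT mice by 6.38-fold and Gpr6 by 3.5-fold. The fitted values of Drd2, Adora2a and Cnr1 were 4.64-, 2.87- and 4.69-fold lower but did not pass the test, with adjusted p of 0.073, 0.13 and 0.13. Drd1 differed by 1.32-fold, with overlapping groups, and Chrm4 was too thinly read to test. Hrh3 and Gpr6 passed the test across all genes (edgeR quasi-likelihood test, Benjamini-Hochberg adjusted p under 0.05), 2 of the 6 receptors tested, where 0.509% of all genes tested were called lower. When the number of count sets was a term in the fit, 5 of the 6 were called lower (Hrh3, Gpr6, Drd2, Adora2a and Cnr1), against 3.84% of all genes. Drd2 and Cnr1 passed the filter on low counts through their NT samples, where they were higher. That count was therefore partly set by the filter and is given as a description. With the sample number as a replicate block, none of the 7658 genes was called. In bulk tissue, fewer cells of a type and less RNA per cell cannot be told apart.

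**Figure D1:**
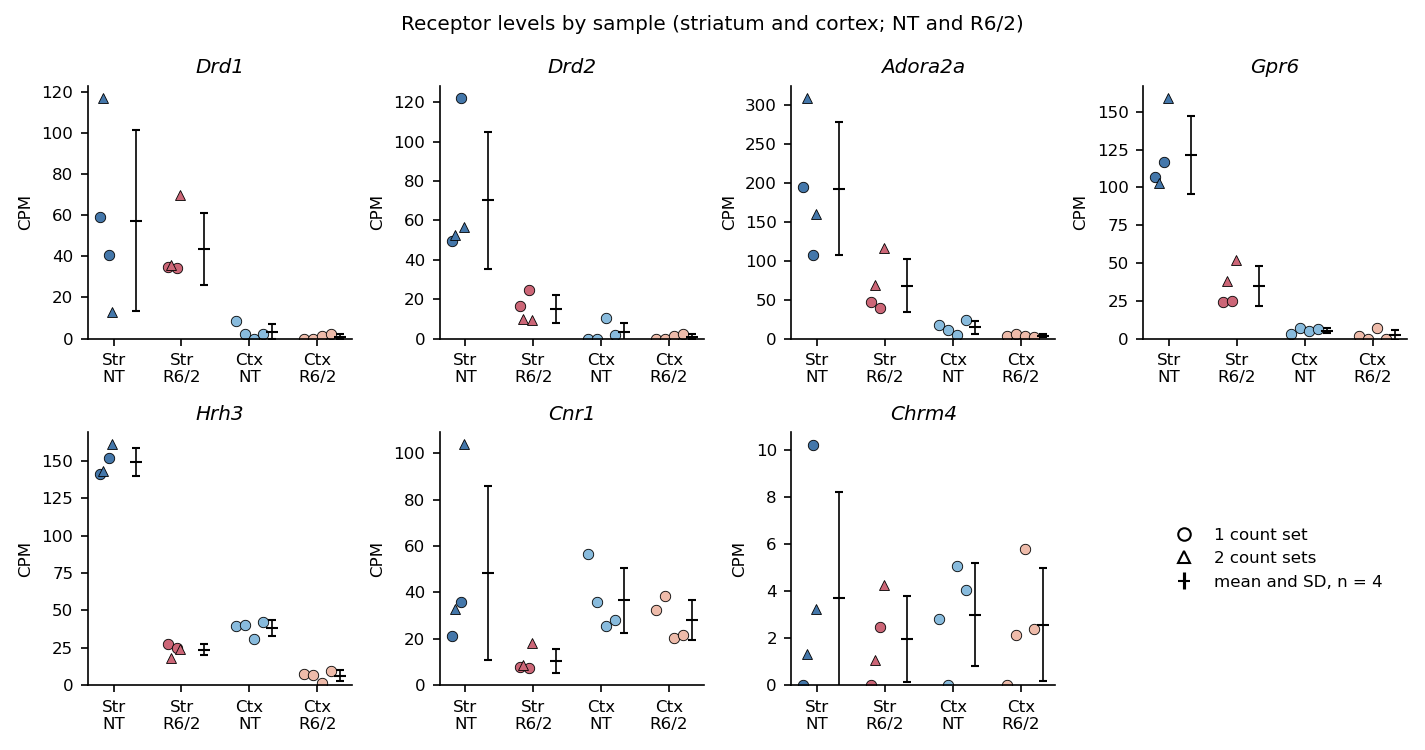
Level of each receptor in CPM (TMM-scaled, linear axis) in every sample, by region (Str, striatum; Ctx, cortex) and genotype, with the group mean and SD (n = 4, bars cut at 0); triangles are samples with 2 count sets and circles those with 1. In the striatum, all R6/2 samples lie below all NT samples for Drd2, Gpr6, Hrh3 and Cnr1, while those of Drd1 and Chrm4 overlap throughout and those of Adora2a overlap at 1 sample.

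Among the indirect pathway receptors, Gpr6, a receptor with high basal coupling to cyclic AMP production, had 103, 159, 107 and 117 CPM in striatum NT 1 to 4 and 24.3, 37.8, 51.9 and 24.6 CPM in striatum R6/2 1 to 4. The lowest NT sample stood well above the highest R6/2 sample. The log2 fold change was -1.81 ± 0.27 (approximate SE, adjusted p = 0.032). Its call was lost when striatum NT 2, striatum NT 3, striatum R6/2 1, striatum R6/2 2 or striatum R6/2 4 was left out, with adjusted p between 0.087 and 0.18 and fold changes between -1.82 and -1.64. With the count-set term the adjusted p was 6.0e-04.

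Drd2, whose product lowers cyclic AMP through Gi proteins, had 52.6, 56.7, 49.3 and 122 CPM in the NT samples, from 24 to 70 reads. The R6/2 samples had 16.7, 9.73, 9.54 and 24.6 CPM, from 9 to 11 reads. The groups did not overlap, and the sample of 122 CPM was the shallowest striatal library. The log2 fold change was -2.22 ± 0.45, with adjusted p = 0.073 without the count-set term and 0.0015 with it.

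Adora2a, which raises cyclic AMP and opposes D2 signalling in the same neurons, had the most striatal reads of the 7, with 571 in NT and 220 in R6/2. It had 309, 160, 194 and 107 CPM in the NT samples and 47.1, 69.2, 116 and 39.3 CPM in the R6/2 samples. The highest R6/2 sample exceeded the lowest NT sample. The log2 fold change was -1.52 ± 0.37, with adjusted p = 0.13 without the count-set term and 0.0047 with it.

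Hrh3, whose product lowers cyclic AMP and limits histamine release, showed the tightest groups. It had 143, 161, 141 and 152 CPM in striatum NT 1 to 4 and 27.3, 18.4, 24.4 and 24.6 CPM in striatum R6/2 1 to 4. The means were 150 ± 9.23 and 23.7 ± 3.78 CPM (SD, n = 4), and the log2 fold change was -2.67 ± 0.22 (adjusted p = 0.0025). The call held with each sample left out in turn.

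Cnr1, which is coupled to Gi proteins and is activated by endocannabinoids, had 32.9, 104, 21.3 and 35.6 CPM in striatum NT 1 to 4 and 7.6, 8.65, 18.0 and 7.37 CPM in striatum R6/2 1 to 4. The groups did not overlap, and striatum NT 2 alone held 128 of the 173 NT reads. The log2 fold change was -2.23 ± 0.53, with adjusted p = 0.13 without the count-set term and 0.01 with it. Counting also its reads of the genomic class, which match no spliced isoform, gave -2.07 ± 0.34 and adjusted p = 0.033.

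Drd1, the dopamine receptor of the direct pathway, had 117, 13.0, 59.1 and 40.6 CPM in striatum NT 1 to 4. It had 34.9, 35.7, 70.0 and 34.4 CPM in striatum R6/2 1 to 4. Striatum NT 2 was the lowest of the 8 samples for Drd1 and the highest for Gpr6, Hrh3 and Cnr1. The log2 fold change was -0.40 ± 0.55 (adjusted p = 0.98), and it changed sign, to 0.25, without striatum NT 1. Its error covers both a fall and a rise.

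Chrm4, the muscarinic receptor of direct pathway neurons, had 7 reads in striatum NT and 6 in striatum R6/2 over all samples, and fell below the filter on low counts. With genomic reads it had 39 and 29. Of its 90 reads in the 16 samples, 67 belonged to 1 isoform of 2 exons and 3066 nt that was placed in the genomic class. The annotation holds Chrm4 as a single exon (chr2:91927249-91928688), while the RefSeq promoter window of the gene ends at position 91922238, upstream of that exon.

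All R6/2 samples lay below all NT samples for 4 of the 6 receptors tested in the striatum (Drd2, Gpr6, Hrh3 and Cnr1), as for 4.28% of all genes tested. Drd2 and Cnr1 passed the filter through their NT samples, so this count too is a description. Apart from Drd1, the receptors tested kept their direction within both kinds of library. Each kind had 2 NT and 2 R6/2 samples, and no test was run on these values. Among samples of 2 count sets the log2 fold changes were -2.30 for Drd2, -1.32 for Adora2a, -1.51 for Gpr6, -2.75 for Hrh3 and -2.07 for Cnr1. Among samples of 1 count set they were -1.74, -1.65, -2.01, -2.32 and -1.44 in the same order. Drd1 differed in sign between them, at 0.28 and -0.45.

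**Figure D2:**
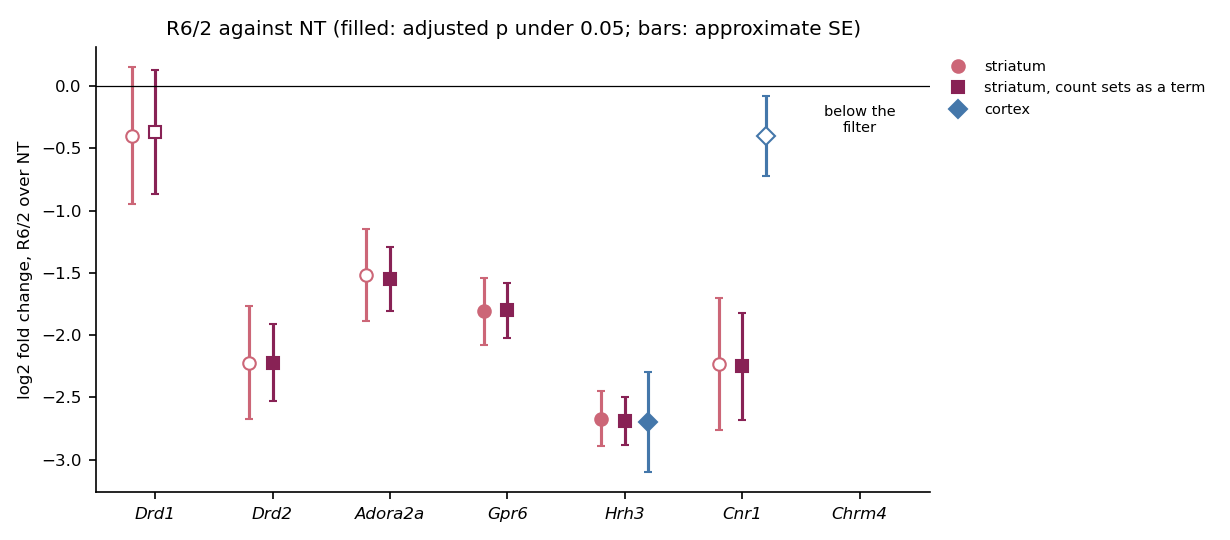
Log2 fold change of R6/2 over NT for each receptor in the striatum without and with the number of count sets as a term, and in the cortex, with approximate SE; filled symbols passed the test. Drd2, Adora2a, Gpr6, Hrh3 and Cnr1 lie between -2.69 and -1.52 in the striatum and Drd1 near -0.4; in the cortex Hrh3 lies at -2.70 and Cnr1 at -0.40, and the other receptors were too low to test.

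Other gene groups moved beside the receptors, and their part in these results was not tested. In the striatum, the summed markers of both kinds of projection neuron, which include Ppp1r1b and Adcy5, ranged from 6532 to 10332 CPM in NT and from 1927 to 3394 CPM in R6/2. The other indirect pathway markers (2 of 3 detected, with Gpr52 at 0) ranged from 4603 to 6069 CPM in NT and from 567 to 843 CPM in R6/2. Penk was called lower (-3.05 ± 0.28, adjusted p = 0.0037), while Sp9 was at 0.14 ± 0.52 (1.0). All 5 direct pathway markers other than the receptors were detected, with a sum of 469 to 533 CPM against 295 to 423 CPM. Of these, 4 were tested and none was called without the count-set term, from Pdyn at -1.20 (adjusted p = 0.14) to Isl1 at 0.35 (0.8), with a median of -0.22. With that term 1 of the 4, Pdyn, was called lower (-1.19, adjusted p = 0.0066), against 3.84% of all genes. All 4 markers of cholinergic neurons were detected, with 86.3 to 155 CPM against 27.0 to 55.1 CPM. All 6 markers were detected for oligodendrocytes, astrocytes, microglia and other interneurons, and 7 and 6 of 7 for cortical excitatory neurons. Markers of oligodendrocytes (13287 to 31244 against 13359 to 19934 CPM), astrocytes (417 to 1111 against 482 to 825 CPM), microglia (274 to 398 against 283 to 449 CPM), other interneurons (234 to 894 against 101 to 691 CPM) and cortical excitatory neurons (5.08 to 53.9 against 18.0 to 46.7 CPM) overlapped between the genotypes.

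Whether the balance of direct and indirect receptors shifted was measured within each sample, which does not depend on scaling between libraries. The log2 ratio of Drd1 to Adora2a reads, with 0.5 added to each count, was -1.40, -3.58, -1.70 and -1.34 in striatum NT 1 to 4. It was -0.42, -0.95, -0.72 and -0.19 in striatum R6/2 1 to 4. Every R6/2 sample was above every NT sample, and the difference was 1.44 (two-sided exact permutation test, p = 0.029, the smallest that 70 arrangements allow). Within numbers of count sets, where 36 arrangements allow no p below 0.056, the test gave that value. Without striatum R6/2 1, 3 or 4 the p was 0.086, 0.057 and 0.086 (exact permutation test), and without striatum NT 2 the difference was 0.91.

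The log2 ratio of Drd1 to Drd2 was 1.14, -2.10, 0.26 and -1.53 in the NT samples and 1.03, 1.82, 2.81 and 0.47 in the R6/2 samples. The groups overlapped, and the difference of 2.09 had p = 0.086 in the exact permutation test. The log2 ratio of Drd1 to Gpr6 was 0.19, -3.57, -0.84 and -1.47 in the NT samples and 0.51, -0.08, 0.43 and 0.47 in the R6/2 samples, with a difference of 1.75 and exact permutation p = 0.057. Over the 3 ratios the Benjamini-Hochberg adjusted p was 0.086 for each, so none passed after correction. All 3 ratios were lowest in striatum NT 2. With each sample left out in turn, the differences ran from 1.57 to 2.65 for Drd2 and from 1.04 to 2.29 for Gpr6.

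**Figure D3:**
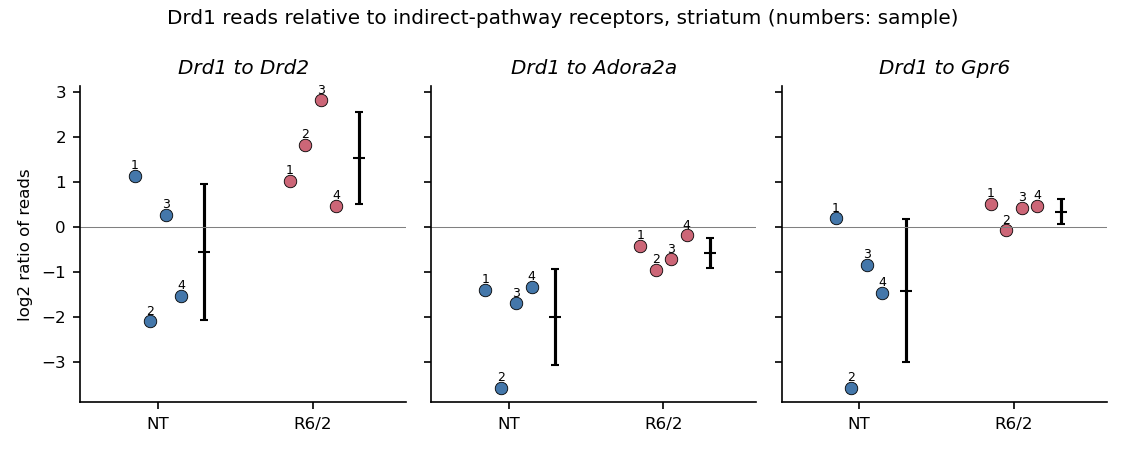
Log2 ratio of Drd1 reads to Drd2, Adora2a and Gpr6 reads in each striatal sample, with sample numbers, mean and SD (n = 4). For Adora2a the 4 R6/2 samples (-0.95 to -0.19) lie above the 4 NT samples (-3.58 to -1.34), and for Drd2 and Gpr6 the groups overlap at NT 1.

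In the cortex only Hrh3 and Cnr1 had enough reads for the test of R6/2 against NT. Hrh3 had 39.5, 40.4, 30.5 and 42.4 CPM in cortex NT 1 to 4 and 7.64, 6.37, 1.44 and 9.62 CPM in cortex R6/2 1 to 4. The groups did not overlap, the log2 fold change was -2.70 ± 0.40 (adjusted p = 4.1e-04), and 1 of 2 receptors was called lower where 2.81% of all genes were. Hrh3 passed the filter here through its NT samples, where it was higher. The count was therefore partly set by the filter and is given as a description. The R6/2 values rest on 12 reads in all, and with known, NIC and NNC isoforms alone Hrh3 fell below the filter there. Cnr1 had 56.4, 36.0, 25.4 and 28.2 CPM in cortex NT 1 to 4 and 32.5, 38.2, 20.2 and 21.6 CPM in cortex R6/2 1 to 4, which overlapped (log2 fold change -0.40 ± 0.32, adjusted p = 0.58).

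The other receptors had 2 to 24 reads per genotype in the cortex and were below the filter there. Adora2a had 24 reads in cortex NT (5.08 to 24.2 CPM) and 8 in cortex R6/2 (2.4 to 6.37 CPM). Gpr6 had 8 and 6, Drd1 5 and 2, Drd2 3 and 2 and Chrm4 4 and 6. At this depth they were not tested. Several marker groups also ranged lower in R6/2 cortex without overlap, and their part in the Hrh3 result was not tested. All 9 projection neuron markers were detected, with 752 to 965 CPM in NT and 445 to 526 CPM in R6/2. Of 5 tested, Ppp1r1b alone was called lower (-2.38, adjusted p = 1.6e-06). The fold changes of 4 were negative, and that of Foxp1 was 0.25. The genes listed as indirect pathway markers (2 of 3 detected, Gpr52 at 0) summed to 130 to 164 CPM and 25.5 to 38.5 CPM. Penk was the only one of them tested in the cortex and was called lower (-2.13 ± 0.22, adjusted p = 5.7e-06). Which cells of the cortex held these transcripts was not tested. All 6 markers of other interneurons were detected, with 930 to 1675 CPM and 617 to 808 CPM, and of 5 tested Vip (-1.60, 0.0053) and Npy (-1.17, 0.0017) were called lower. All 6 astrocyte markers were detected, with 869 to 1225 CPM and 628 to 752 CPM, and none was called. The sums of the direct pathway, cholinergic, cortical excitatory, oligodendrocyte, microglia and choroid plexus markers overlapped.

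The test of the interaction, which asks whether the R6/2 effect differed between the regions, called 0 of the 6 receptors tested and 0.0135% of all genes. At an unadjusted p under 0.05 Cnr1 alone would count, 1 of the 6, as would 193 of the 7390 genes tested in all. Its effect was lower in the striatum by a log2 difference of -1.82 ± 0.67 (unadjusted p = 0.014, adjusted p = 1.0), and DESeq2 called 0 of the 6 as well. For Hrh3 the fitted difference of the 2 effects was 0.04 (unadjusted p = 0.88), and DESeq2 gave 0.09 ± 0.56, an error that leaves room for a difference in either direction.

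The receptors were compared between regions within each genotype. In NT mice, 4 of the 5 receptors tested were higher in the striatum than in the cortex, where 5.89% of all genes were. The receptors were picked as striatal. Drd2, Adora2a and Gpr6 were below the filter in the cortex and passed it here through their striatal reads. The count called higher was therefore largely set by the choice and the filter, and is given as a description. Over all genes, 363 were higher and 220 lower with TMM scaling, and 280 and 264 with upper-quartile scaling, which moved the median log2 fold change from 0.12 to -0.014. The log2 fold changes were 4.97 ± 0.70 for Drd2 (adjusted p = 0.0012), 4.58 ± 0.35 for Gpr6 (3.2e-05), 3.75 ± 0.42 for Adora2a (3.9e-04) and 2.07 ± 0.24 for Hrh3 (3.9e-04). Drd2 had 3 reads in cortex NT, so the ratio of pooled CPM is 29.1, with an exact 95% interval of 9.79 to 143 that covers counting error only. Drd1 did not pass the filter in this comparison. Its pooled ratio was 15.9 (6.65 to 49.6), with 149 striatal and 5 cortical reads.

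Cnr1 in NT mice did not differ detectably between regions, with means of 48.4 ± 37.4 CPM in the striatum and 36.5 ± 14.0 CPM in the cortex (log2 fold change 0.58 ± 0.47, adjusted p = 0.48). Without striatum NT 2 the fold change was -0.19. With genomic reads counted, it was 1.13 ± 0.32 and passed the test (adjusted p = 0.041).

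In R6/2 mice, 4 of the 5 receptors tested were higher in the striatum, against 7.8% of all genes. Here too the choice and the filter largely set the count, since Drd1, Adora2a and Gpr6 were below the filter in the cortex. Drd1 led with 5.34 ± 0.59 (adjusted p = 2.2e-04), which rests on 136 striatal and 2 cortical reads and a pooled ratio of 48.7 (13.2 to 407). Adora2a followed at 4.18 ± 0.48 (2.8e-04), Gpr6 at 3.64 ± 0.58 (0.0019) and Hrh3 at 2.03 ± 0.41 (0.007). Cnr1 was the fifth and was called lower in the striatum of R6/2 mice, with 10.4 ± 5.1 CPM against 28.1 ± 8.66 CPM in the cortex (-1.27 ± 0.36, adjusted p = 0.036), as 6.87% of all genes were. With genomic reads the Cnr1 value was -0.56 (adjusted p = 0.23), so that call depends on the read class. Leaving out striatum R6/2 1, 2 or 4 or cortex R6/2 1 or 2 also lost that call, with adjusted p from 0.052 to 0.11. These comparisons share samples with those of the genotypes.

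Drd2, Adora2a, Gpr6 and Hrh3 had their highest mean in striatum NT and their lowest in cortex R6/2. For Hrh3 the cortex of NT mice (30.5 to 42.4 CPM) lay above the striatum of R6/2 mice (18.4 to 27.3 CPM). For Gpr6, Adora2a and Drd2 the order of the middle groups was the opposite, with striatum R6/2 above cortex NT in mean (34.7 and 5.17, 67.8 and 14.4, 15.1 and 3.05 CPM). The Drd2 values of 9.54 to 24.6 and 0 to 10.2 CPM overlapped. For Cnr1 striatum NT, cortex NT and cortex R6/2 overlapped, and striatum R6/2 was lowest (7.37 to 18.0 CPM, below every other sample). For Drd1 the striatal groups overlapped, as did the cortical ones.

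Long reads also show which isoforms make up each receptor. TALON sorts reads into known isoforms (all splice junctions as annotated), incomplete splice matches (ISM, part of a known chain of junctions), NIC (known splice sites in a combination not annotated), NNC (at least 1 splice site not annotated) and genomic (reads that overlap a gene without matching its splicing). The mix differed widely by receptor. Outside the genomic class, Gpr6 was nearly all known (360 of 362 reads in striatum NT). Drd2 was mostly ISM (201 of its 245 reads in the 16 samples), Adora2a and Drd1 were led by NNC isoforms, and Cnr1 and Chrm4 held 280 of 599 and 67 of 90 reads in the genomic class. Over all genes, the genomic class took 7.75% and ISM 13.2% of striatal reads in the 5 classes.

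**Figure D4:**
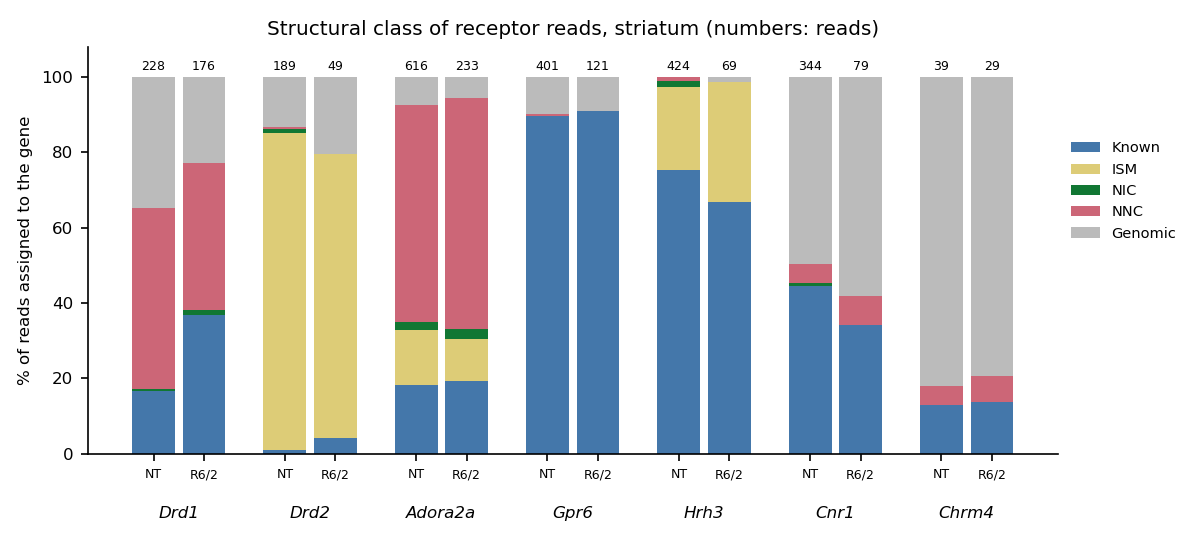
Share of the reads of each receptor in the 5 structural classes in the striatum, as stacked bars for NT and R6/2 with 4 samples pooled in each; the number of reads stands above each bar. Drd2 is mostly ISM, Gpr6 mostly known, Adora2a mostly NNC and Chrm4 mostly genomic in both genotypes, and for Drd1 the known share is 16.7% in NT and 36.9% in R6/2.

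Hrh3 (ENSMUSG00000039059, chr2:180099465-180104488 on the minus strand of mm10) was read as a pair of spliced forms in nearly equal amounts. They differ at the end of exon 1, where the donor site of one lies 4 nt before that of the other. The annotation calls ENSMUST00000056480 protein coding and ENSMUST00000166724 a target of nonsense-mediated decay. The difference of 4 nt is not a multiple of 3. Both sequences are shown because they are the only difference at this junction, and they run from the last 24 nt of exon 1 that both share (chr2:180103906-180103929) into the first 24 nt of exon 2 (chr2:180102872-180102895), from the GENCODE M21 transcripts, minus strand of mm10. Capitals mark the 4 nt that only the first form keeps.
ENSMUST00000056480: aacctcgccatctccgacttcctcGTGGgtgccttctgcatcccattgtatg
ENSMUST00000166724: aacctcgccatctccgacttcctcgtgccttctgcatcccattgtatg

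In striatum NT 1 to 4 the coding form had 50, 75, 20 and 8 reads and the form with the shorter exon 1 had 41, 82, 28 and 6. In striatum R6/2 1 to 4 they had 2, 7, 12 and 0 against 5, 6, 7 and 3. The shorter form made up 50.6% of the reads of the pair in striatum NT and 50.0% in striatum R6/2, and both had fewer reads in R6/2. Its mean share per sample was 49.6 ± 7.01% in NT and 63.6 ± 28.3% in R6/2 (difference 14.0 percentage points, two-sided exact permutation test, p = 0.43), and the R6/2 samples had 3 to 19 reads of the pair. The cortex had 11 and 5 reads in NT and 1 and 3 in R6/2.

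A single-exon ISM isoform of 1952 nt, the length of the last annotated exon, took another 94 Hrh3 reads in striatum NT and 22 in striatum R6/2. The ISM share of Hrh3 was 10.1, 16.1, 41.9 and 50.0% in striatum NT 1 to 4 and 55.6, 17.6, 8.7 and 70.0% in striatum R6/2 1 to 4. It was at most 17.6% in the 4 samples with 2 count sets and at least 41.9% in the 4 with 1, in both genotypes, and the genotypes overlapped (29.5 ± 19.4% and 38.0 ± 29.5%, exact permutation p = 0.6). Another annotated isoform, ENSMUST00000166392, a retained intron form of 2 exons, had 9 of 330 complete reads in striatum NT and 4 of 46 in R6/2.

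Drd2 (ENSMUSG00000032259, chr9:49340627-49408177, plus strand) has a long and a short protein form that differ by exon 6, which encodes part of the third intracellular loop. The exon is 87 nt (chr9:49403194-49403280), a multiple of 3, and the annotation used here holds only the transcript with it, ENSMUST00000075764. Its sequence, from the GENCODE M21 transcripts, shows the part by which the forms differ.
Drd2 exon 6: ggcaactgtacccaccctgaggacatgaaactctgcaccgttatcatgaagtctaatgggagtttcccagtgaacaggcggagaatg

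Most Drd2 reads did not reach that exon. Of the 245 reads, 133 were of a single-exon isoform of 1277 nt, the length of the last exon, and 32 of a 2-exon isoform of 1608 nt, the length of the last 2 exons. Isoforms whose exon number and length equal a stretch of the annotated transcript that includes exon 6 held 33 reads. An NIC isoform of 7 exons and 2460 nt, the annotated length less the 87 nt of exon 6, held 2 reads, both in striatum NT. A further 2 isoforms had lengths short of such a stretch by the same 87 nt, with 2 reads and 1 read, all in striatum NT. TALON placed them in the ISM class, whose junctions are all annotated, so length and class disagree on exon 6. In striatum NT the counts with and without exon 6 were 25 and 2 with these isoforms left out, and 25 and 5 by length alone. In striatum R6/2 they were 7 and 0, which is too few to compare. Placement rests on lengths, since positions of NIC and NNC isoforms were not used here. The other 42 reads had lengths that fitted neither and were mostly genomic.

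Drd1 (ENSMUSG00000021478, chr13:54051183-54055705, minus strand) was read mainly as 2 isoforms of 2 exons. The known isoform ENSMUST00000021932 of 3526 nt had 38 reads in striatum NT and 65 in striatum R6/2. An NNC isoform of 4596 nt, TALONT000301300, had 107 and 64. The NNC share of complete reads (known, NIC and NNC) was 68.5, 87.5, 72.2 and 75.0% in striatum NT 1 to 4. It was 69.6, 48.5, 40.9 and 35.7% in striatum R6/2 1 to 4. Only striatum R6/2 1 reached the NT range. The difference in means was -27.1 percentage points (two-sided exact permutation test, p = 0.057), and it ran from -34.1 to -22.8 with each sample left out in turn. The test of isoform usage across all genes gave an unadjusted p = 0.36 for Drd1 (adjusted p = 1.0).

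Adora2a (ENSMUSG00000020178, chr10:75316877-75334784, plus strand) was led by an NNC isoform of 3 exons and 2504 nt, TALONT000384771, with 304 of 481 complete reads in striatum NT and 125 of 194 in striatum R6/2. Its share was 62.2 ± 5.85% and 67.4 ± 13.1% of complete reads (exact permutation p = 0.57). The known isoform ENSMUST00000105420, also of 3 exons and 2534 nt, had 23.3% and 23.2%. The same form led in both genotypes. Of the minor isoforms, 3 reached 5% of complete reads in a group, each with 1 read in the cortex.

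Cnr1 (ENSMUSG00000044288, chr4:33924593-33948831, plus strand) has alternative first exons that join the same second exon, which starts at position 33943552. ENSMUST00000057188, with the upstream first exon (chr4:33924632-33925158), had 137 of 173 complete reads in striatum NT, 24 of 33 in striatum R6/2, 38 of 55 in cortex NT and 25 of 58 in cortex R6/2. ENSMUST00000084736, with the downstream one (chr4:33926202-33926694), had 16, 3, 4 and 9. The share of the first was 64.4 ± 17.5% in striatum NT and 74.7 ± 10.9% in striatum R6/2 (exact permutation p = 0.4). An NNC isoform of 2199 nt had 9, 4, 5 and 10 reads. The other isoforms past 5% in a group were NNC isoforms of 1806 and 1234 nt and a NIC isoform of 2120 nt, with at most 5 reads in a group.

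Gpr6 (ENSMUSG00000046922, chr10:41069977-41072285, minus strand) had a single isoform of note, ENSMUST00000061796, with 2 exons. It took 99.4% of complete reads in striatum NT and 100% in striatum R6/2. For Chrm4 (ENSMUSG00000040495) the annotated single-exon form held 5 of 7 and 4 of 6 complete reads.

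The test of isoform usage (edgeR diffSpliceDGE with Simes' method on known, NIC and NNC isoforms of at least 10 reads) called none of the receptors. It tested Hrh3, Drd1, Adora2a and Cnr1 in the striatum, with unadjusted p from 0.34 to 0.95 and none under 0.05, where 0.0676% of 4437 genes were called. In the cortex it tested Cnr1 (unadjusted p = 0.26; 0.36% of genes called). Between regions in NT mice it tested the same 4 as in the striatum, with unadjusted p from 0.13 to 0.91 and 0.271% of genes called. The gene-level F test called none of them either.

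RefSeq promoter windows (GRCm38.p6, 250 bases before to 50 after a start) were found for 6 of the 7 receptors, all but Adora2a. Motifs searched on both strands were the GC box GGGCGG, the CCAAT box CCAAT, the cyclic AMP response element TGACGTCA and the TATA box TATAAA, and capitals mark matches. Hrh3 and Gpr6, which passed the test, and Drd1, which did not, are shown on the minus strand.
Hrh3 chr2:180104358-180104657: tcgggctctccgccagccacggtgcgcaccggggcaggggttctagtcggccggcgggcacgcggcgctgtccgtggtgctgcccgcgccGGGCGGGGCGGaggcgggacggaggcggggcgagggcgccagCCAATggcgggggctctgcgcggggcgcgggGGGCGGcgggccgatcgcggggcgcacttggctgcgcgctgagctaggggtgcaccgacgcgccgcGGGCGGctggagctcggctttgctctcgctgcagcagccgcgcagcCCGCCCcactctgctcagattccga
Gpr6 chr10:41072241-41072540: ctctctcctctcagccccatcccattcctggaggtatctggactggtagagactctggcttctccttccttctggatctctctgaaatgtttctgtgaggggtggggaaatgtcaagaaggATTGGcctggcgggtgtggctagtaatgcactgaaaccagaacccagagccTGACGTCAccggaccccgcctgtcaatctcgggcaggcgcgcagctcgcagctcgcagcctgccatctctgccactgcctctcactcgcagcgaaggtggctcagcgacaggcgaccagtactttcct
Drd1 chr13:54055609-54055908: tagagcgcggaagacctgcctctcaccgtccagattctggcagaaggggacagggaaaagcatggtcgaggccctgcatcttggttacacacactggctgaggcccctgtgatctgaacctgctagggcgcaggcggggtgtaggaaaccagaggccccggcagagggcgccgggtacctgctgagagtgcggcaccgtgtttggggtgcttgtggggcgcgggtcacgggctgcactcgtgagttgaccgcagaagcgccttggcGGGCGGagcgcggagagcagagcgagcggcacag

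The Hrh3 window was 79.0% G and C with 47 CpG sites, against medians of 52.7% and 7.0 over 32851 promoters. It held 5 GC boxes, 2 of them overlapping, and 1 CCAAT box. A GC box occurs in 35.7% of promoters and a CCAAT box in 37.4%. The Gpr6 window held 1 CCAAT box and 1 cyclic AMP response element, which 1.79% of promoters hold, and no GC box. Drd1 has 2 windows in the RefSeq table, and the one shown and the other (chr13:54054731-54055030) held 1 GC box each. No receptor window held TATAAA (13.6% of promoters). These are matches of letters and not measured sites.

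Other receptors of the same families and of the striatum ranged lower in R6/2 striatum but were not called without the count-set term. Of 33 listed, 9 were tested and edgeR called 0. DESeq2 called 1 of the 9 lower, where it called 172 of the 7658 genes lower. At an unadjusted p under 0.05 there were 6 of the 9, and 760 of the 7658 genes tested in all. All 9 had negative fold changes, with a median of -0.77 against -0.01 over all genes. With the count-set term, 3 were called, all lower, against 3.84% of all genes, among them Gpr12 (-1.09, adjusted p = 0.02) and Grm5 (-0.91, 0.027), which are named after their values were seen.

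In the signal chain from receptor to cyclic AMP, 4 of 34 tested entries were called, all lower, against 0.509% of all genes. The fold changes of 23 of the 34 were negative, with a median of -0.43, and the highest was that of Gng3, a G protein subunit (0.80 ± 0.41, adjusted p = 0.6). The 4 were Rgs9, which speeds the shut-off of G proteins behind D2 receptors (-2.36 ± 0.27, adjusted p = 0.0071), Pde10a, a striatal phosphodiesterase (-2.17 ± 0.25, 0.0071), Ppp1r1b, which encodes DARPP-32 (-2.16 ± 0.33, 0.032), and Adcy5, the main striatal adenylyl cyclase (-1.86 ± 0.21, 0.0071). The G protein subunit Gnal, through which the D1 receptor and the adenosine receptor encoded by Adora2a act, was at -0.40 ± 0.24 (0.71). Gnal and Gng3 are named after their values were seen. With the count-set term 11 of 34 were called, all lower, against 3.84% of all genes. Pde2a stands under 2 gene identifiers and counts as 2 entries. All 4 named genes are also among the 9 projection neuron markers.

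On the ligand side, 24 genes were listed for synthesis, transport and breakdown of dopamine, adenosine, histamine, acetylcholine and endocannabinoids. Th, Ddc, Slc6a3, Slc18a2 and Hdc were among those not tested. Of the 13 tested, 1 was called lower, against 0.509% of all genes, with a median of -0.27. It was Chat, a cholinergic marker that makes acetylcholine (-2.13 ± 0.33, adjusted p = 0.032). With the count-set term 3 were called lower, against 3.84% of all genes, the others, named after their values were seen, being the vesicular acetylcholine transporter Slc18a3 (-1.54, 0.044) and Mgll, which degrades the endocannabinoid 2-AG (-0.71, 0.019).

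**Figure D5:**
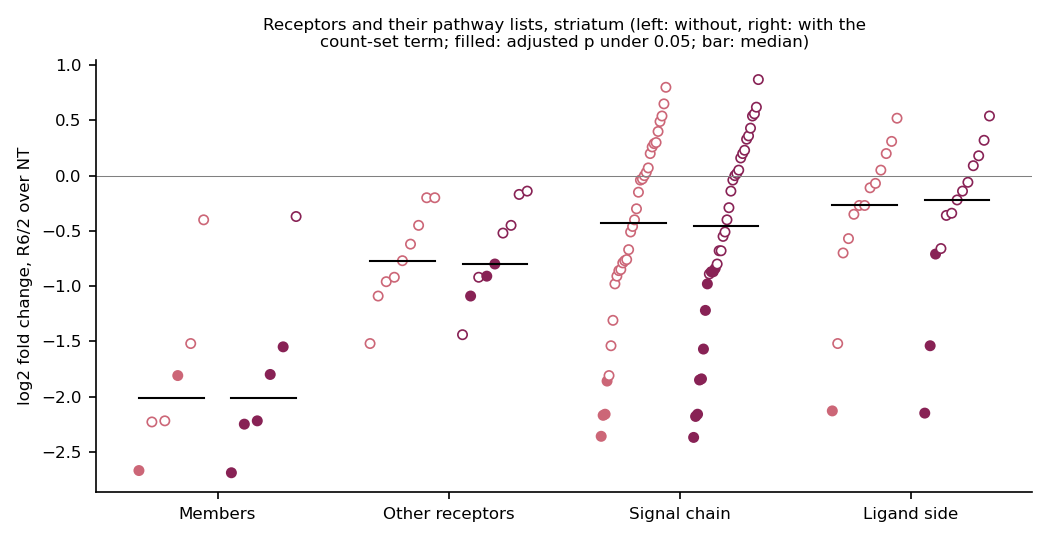
Log2 fold change of R6/2 over NT in the striatum for the 6 receptors tested and for the other receptors, the signal chain and the ligand side, without (left) and with (right) the number of count sets as a term; filled points passed the test and bars are medians. The receptors' points lie mostly near -2, the other receptors' median is -0.77, that of the signal chain -0.43 and that of the ligand side -0.27 without the term.

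The genes whose log2 CPM followed each receptor most closely are given as a description, since the points share libraries, depth and the differences between groups. Over the 16 samples and 7390 genes, the closest were Plekhb1 (Pearson's r = 0.953), Asic4 and Ap1s2 for Drd1, Penk (0.928), Unc13c and Dgkb for Drd2, Hpca and Elmo1 for Adora2a and 1700037H04Rik (0.976), Hpca and Gprin3 for Gpr6. For Hrh3 they were Lmo2 (0.933), 2010300C02Rik and Itpr1, and for Cnr1 Hras (0.859), Zbtb7a and Camk2n1.

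Over the 8 striatal samples alone, the closest were Rtn4 (0.945), Eml2 and Fbxo8 for Drd1, Ddit4l (0.966), Mgll and Rgs7bp for Drd2, Tmod2 (0.993), Nsg1 and Plk2 for Adora2a and Ccm2 (0.986), Rgs9 and Ryr3 for Gpr6. Hrh3 was closest to Penk (0.995), Arpp21 and Adcy5, and Cnr1 to Syndig1l (0.992), Actr3b and Klf9. Chrm4 did not pass the filter and has none.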

How the data were processed

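Iso-seq was done on 16 brain samples. In the study's methods, consensus reads from the PacBio Sequel II were trimmed, required to be full length and polyadenylated, aligned to mm10 (minimap2, version 2.17-r941 in the submitters' processing notes), cleaned of errors by TranscriptClean and annotated by TALON with Ensembl gene models. The values the authors deposited are counts of reads per isoform, before TALON's filter, in 20 files of 815498 isoforms each. Samples were grouped by their labels, and age came from the paper.

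Gene counts summed known, ISM, NIC and NNC isoforms. Genomic reads entered only where stated, and antisense and intergenic reads were left out. Genes passing filterByExpr were tested with edgeR 4.0.16 in R 4.3.3 (quasi-likelihood test, TMM), each comparison on its own samples and the interaction on all 16, with Benjamini-Hochberg adjustment over all genes and a threshold of 0.05. The approximate SE is the absolute log2 fold change over the square root of F, which is unreliable near a fold change of 0. Isoform usage was tested with diffSpliceDGE. Ratios and shares were compared by two-sided exact permutation tests, where 4 against 4 samples allow no p below 0.029. DESeq2 1.42.0 was an alternative. The fits were tested on simulated data. Genes named in the text are the 7 receptors, their 3 closest genes by correlation, the called genes of each list (the 2 lowest and 2 highest fold changes where more than 4 were called), and isoforms with at least 5% of complete reads in a group. Members and lists were chosen with earlier results of these data known. Positions are those of GENCODE M21 (mm10). Intervals cover counting error only, since reads came from amplified cDNA without molecular identifiers. Some genes that these rules select are not reported here.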

Additional observations from a re-analysis of the deposited data

Results flagged for a closer look

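In 48 groups of 4 values (levels in each group, striatal log2 ratios and shares of the most-read isoform), 6 had a sample far from the others by Dixon's test. Chance gives about 1 in 20 for normal values, a rate that need not hold for tied or bounded shares and low counts. Drd1 was 70.0 CPM in striatum R6/2 3 while the others lay at 34.4 to 35.7 CPM. Drd2 was 122 CPM in striatum NT 4, from 24 reads in the shallowest striatal library, against 49.3 to 56.7 CPM. Cnr1 was 18.0 CPM in striatum R6/2 3 against 7.37 to 8.65 CPM. The log2 ratio of Drd1 to Adora2a was -3.58 in striatum NT 2 against -1.70 to -1.34. The log2 ratio of Drd1 to Gpr6 was -0.08 in striatum R6/2 2 against 0.43 to 0.51. The most-read Gpr6 isoform took 99.0% of complete reads in striatum NT 2 and 100% in the other NT samples. With the other values equal, the test flags any departure, however small, so this flag carries no weight.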

How the results depend on the processing

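Depth limits precision, since most receptors rest on few reads per sample. Of 445 alternative values of the receptors' log2 fold changes, 399 kept their direction and side of the threshold, 18 passed it, 15 lost it, 9 changed sign and 4 moved by more than the spread. The receptors called lower in the striatum were 2 of 6 as reported (39 of 7658 genes). They were 5 of 6 with DESeq2 (172 of 7658 genes lower) and 5 of 7 with no filter on low counts (72 of 20032). With all 16 samples in 1 fit they were 5 of 6 (134 of 7390), and with the number of count sets as a term 5 of 6 (294 of 7658). Genomic reads and that term together, chosen after seeing the data, gave 5 of 6 (421 of 8718). They were 4 of 6 with genomic reads alone (56 of 8718) and 1 to 2 with a sample left out. In the cortex the call on Hrh3 went with known, NIC and NNC isoforms only (0 receptors called, Hrh3 below the filter) and stood at 1 with each sample left out. Between regions, 3 to 5 receptors were called in R6/2 with a sample left out, 3 without striatum R6/2 1. The interaction and isoform usage called 0 receptors under every alternative.

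Leaving out each sample, the differences in log2 ratio ran from 1.57 to 2.65 (Drd1 to Drd2), 0.91 to 1.66 (Drd1 to Adora2a) and 1.04 to 2.29 (Drd1 to Gpr6). Differences in the share of the most-read isoform ran from -34.1 to -22.8 percentage points for Drd1, -0.448 to 9.94 for Adora2a and -0.504 to 21.7 for Hrh3. Hrh3 was at -1.97 with ISM reads in the denominator and Cnr1 at -3.79 with the first set of counts only. Differences in ISM share, left out in turn after seeing the data, ran from -5.15 to 2.26 for Drd2, -4.13 to -1.0 for Adora2a and -2.21 to 18.2 for Hrh3. Signs changed for the fold change of Drd1 in the striatum (-0.78 to 0.25, with 0.25 without NT 1, and 0.28 within samples of 2 count sets), of Cnr1 between regions in NT (-0.19 without striatum NT 2, up to 0.86), and for the interaction of Gpr6 (-1.24 to 0.82, the last without cortex R6/2 3) and Hrh3 (-0.38 to 0.29, -0.00 without striatum NT 3, -0.04 without striatum R6/2 1, -0.02 without cortex NT 4, -0.38 without cortex R6/2 3, and -0.45 with known, NIC and NNC isoforms only). No cause was tested.

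With the sample number as a replicate block, 0 receptors and 0 of 7658 genes were called in the striatum (635 at an unadjusted p under 0.05), with adjusted p = 0.051 for Hrh3 and 0.075 for Gpr6 (edgeR). The Drd1 to Adora2a difference of 1.44 had p = 0.12 (exact sign-flip permutation test), as against 0.056 within numbers of count sets, and Cnr1 between regions in R6/2 had adjusted p = 0.051. The block left 1 receptor called in the cortex, where 205 of 6121 genes were called. In each comparison of regions it left 4, with 307 of 6168 genes called in NT and 1052 of 6975 in R6/2. The numbers were not taken to pair the samples: deviations of same-numbered NT and R6/2 samples correlated at -0.57 to 0.62 in the striatum and -0.07 to 0.17 in the cortex. Between cortex and striatum, same-numbered NT samples correlated at -0.23 to 0.22 and same-numbered R6/2 samples at 0.40, 0.19, 0.38 and -0.04, and not every sample correlated best with its own number.

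Counts over all genes moved by more than 1.5 times in these settings. In the striatum, 39 genes were called as reported, 332 with the count-set term, 495 with that term and genomic reads, 187 with DESeq2, 145 with all 16 samples, 77 with no filter, 20 with the first set of counts and 13 with known, NIC and NNC isoforms only. In the cortex, 200 became 95 with the last setting and 48 with all 16 samples. Between regions in NT, 583 became 1302 with no filter, 1101 with all 16 samples, 355 with known, NIC and NNC isoforms only and 307 with the block, and in R6/2 1023 became 1634 with no filter. The interaction called 0 to 3 genes.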
